A study of Mus musculus with 2 samples.

Results

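The genes described here are 33 genes of the unfolded protein and amino acid stress responses. They were taken from a fixed list of symbols found in both libraries, 33 of the 32245 symbols counted, and were kept apart as 17 chaperones and quality control genes of the endoplasmic reticulum (ER group) and 16 genes made of Atf4 and its targets (Atf4 group). Expression had been measured by 10x Genomics 3' single-cell RNA sequencing in CD45+ DAPI- cells, living leukocytes, sorted from B16-F0 tumours, a transplantable mouse melanoma. The groups were a knockout (KO) and a wild-type (WT) genotype with 1 library each. The labels do not name the deleted gene and call the cells TIL-Treg, while the stated sort takes all leukocytes. With 1 library a genotype, the genotype and the library cannot be told apart, no test was possible, and every interval below covers counting error only.

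Misfolded protein in the ER activates 3 sensors, Ern1 (IRE1), Eif2ak3 (PERK) and Atf6. Ern1 splices the mRNA of Xbp1 and Atf6 is cleaved to a transcription factor, and both raise chaperones and the machinery that removes misfolded protein. Eif2ak3 phosphorylates the initiation factor eIF2α, which lowers general translation and favours translation of Atf4. Eif2ak4 (GCN2) feeds the same step when amino acids run short, and Atf4 then raises genes for amino acid synthesis and uptake. Plasma cells, dendritic cells and activated T cells are known for their use of these pathways.

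The groups also differed in their promoter sequences. Members and elements were both taken as known parts of these pathways, so the shares below describe the list and are no independent support for it. An element bound by ATF6 together with NF-Y (CCAAT, 9 bases of any kind, CCACG) lay within 250 bases before to 50 bases after the annotated start in 7 of 15 ER group promoters (46.7%), in 0 of 18 Atf4 group promoters and in 39 of 32851 promoters of the whole RefSeq table (0.119%). Both strands were searched in RefSeq promoters of GRCm38.p6, which held 33 promoters of 30 members. The sites are printed on the strand of the element, 5′ to 3′, with the fixed letters in capitals, so that the middle bases can be compared. The ends are identical by the search rule.
Hspa5: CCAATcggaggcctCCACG
Hsp90b1 upper site: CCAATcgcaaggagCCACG
Hsp90b1 lower site: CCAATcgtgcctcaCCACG
Calr: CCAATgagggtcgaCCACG
Canx: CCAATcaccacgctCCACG
Pdia6: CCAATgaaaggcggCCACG
Dnajc3: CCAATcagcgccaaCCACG
Creld2: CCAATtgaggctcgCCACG
The Hspa5 site ended 47 bases before the start (chr2:34772025-34772043), and the others ended between 80 bases (Pdia6, chr12:17266491-17266509) and 194 bases before it (upper site of Hsp90b1, chr10:86705638-86705656). The lower Hsp90b1 site, Calr and Creld2 had the element on the strand opposite to the gene. Herpud1 held the shorter second form of the element (ATTGG, 1 base of any kind, CCACG), which 12 promoters of the table held (0.0365%), as ATTGGgCCACG at chr8:94386377-94386387.

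The Atf4 group was looked at for the element that C/EBP and ATF factors bind together, TTGCATCA, and for a looser form, TGATGNAA, whose reverse complement covers the first. TTGCATCA was found in Slc7a11, which held it on each strand, in Chac1 and, in the ER group, in Herpud1. That made 2 of 18 Atf4 group promoters (11.1%) and 1 of 15 ER group promoters (6.67%), against 0.895% of all promoters. TGATGNAA was found in Asns, Chac1, Trib3 and Slc7a11, 4 of 18 promoters (22.2%), in Herpud1 and in 3.97% of all promoters. The XBP1 and ATF6 element TGACGTGG was in 0 promoters of either group and in 0.676% of the table. A match is a run of letters and was not read as a bound site. The 250 bases before the start of Hspa5 (chr2:34771840-34772089, plus strand), Slc7a11 (chr3:50443614-50443863, minus strand) and Asns (chr6:7693210-7693459, minus strand) are shown 5′ to 3′ along the gene with the matches in capitals, since these genes stand for the chaperones, for the transporter with the widest range of ratios between the libraries and for amino acid synthesis.
Hspa5: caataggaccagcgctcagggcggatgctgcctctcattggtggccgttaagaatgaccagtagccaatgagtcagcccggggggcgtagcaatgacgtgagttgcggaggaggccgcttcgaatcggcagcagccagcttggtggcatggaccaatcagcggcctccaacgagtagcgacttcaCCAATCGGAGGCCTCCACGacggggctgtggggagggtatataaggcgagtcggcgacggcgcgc
Slc7a11: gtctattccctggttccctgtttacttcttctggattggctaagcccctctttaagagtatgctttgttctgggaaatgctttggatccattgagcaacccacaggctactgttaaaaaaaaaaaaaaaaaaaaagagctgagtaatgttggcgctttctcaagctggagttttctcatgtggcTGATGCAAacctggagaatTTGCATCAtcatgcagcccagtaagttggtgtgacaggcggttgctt
Asns: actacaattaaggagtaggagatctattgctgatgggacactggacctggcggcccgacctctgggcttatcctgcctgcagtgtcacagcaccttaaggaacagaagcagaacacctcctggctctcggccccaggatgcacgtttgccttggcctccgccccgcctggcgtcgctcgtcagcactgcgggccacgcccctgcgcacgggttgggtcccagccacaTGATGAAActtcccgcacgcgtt

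**Figure D1:**
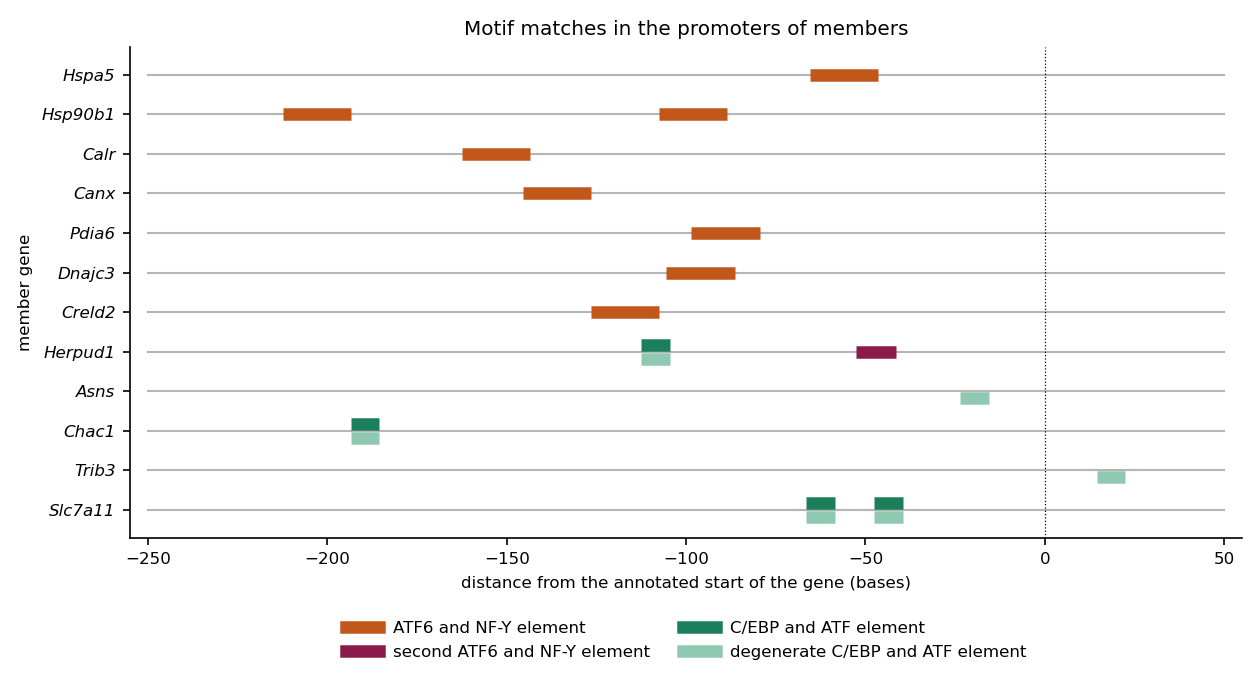
Motif matches in the promoters of the 12 members that held any, 8 of the ER group and 4 of the Atf4 group. Grey lines run from 250 bases before to 50 bases after the annotated start (dotted line), and coloured boxes mark matches on either strand. The orange ATF6 and NF-Y boxes lie in Hspa5 to Creld2, and the green boxes in Herpud1 and the Atf4 group genes.

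The KO library held 11398 cell barcodes and 112544655 unique molecular identifiers (UMIs, each standing for 1 captured RNA molecule), and the WT library 11432 and 98438084. After the filters 11131 KO and 11153 WT cells were kept, with medians of 6360 and 5191 UMIs, and 42 barcodes occurred in both libraries. Members had 411008 UMIs in KO and 317992 in WT. Cells were put in classes by marker genes, called "-like" here because the labels name no cell types, and the 952 KO (8.55%) and 1229 WT (11.02%) cells with markers of more than 1 lineage were set aside. The 12 classes with at least 100 cells in each library held 72.6% of KO and 75.5% of WT cells, and B-like cells numbered 403 in KO and 3501 in WT. Against the label, Treg-like cells were 329 KO and 136 WT cells, of which 24.6% and 57.4% had a UMI of Foxp3, the defining Treg factor. CD8-like cells, which should lack Foxp3, had 0.727% and 0.713% (median depths 7378 and 7420 UMIs in Treg-like, 7014 and 6462.5 in CD8-like cells). Erythroid marker RNA summed to 5.45 CPM (UMIs of a gene in 1000000 UMIs of that class and library) in KO and 933 CPM in WT macrophage-like cells, and between 0.695 and 497 CPM in KO and between 6.64 and 1022 CPM in WT over the 12 classes.

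Levels are given in CPM with an exact Poisson 95% interval in brackets where shown, and are compared between classes, not between genes. Orders of levels are over the 12 compared classes. The plasma-like, neutrophil-like and mature dendritic-like classes, with under 100 cells in a library, are left out of them, and plasma-like cells were above the 12 classes for several chaperones. Within the 12, most chaperones were lowest in B-like or naive T-like cells and highest in macrophage-like or plasmacytoid dendritic (pDC-like) cells. Hspa5, the main ER chaperone BiP, stood at 922 CPM in KO and 820 CPM in WT macrophage-like cells. The next class had 690 CPM in KO (cDC2-like, a conventional dendritic class) and 646 CPM in WT (monocyte-like), with intervals that did not overlap the first. B-like cells had the lowest Hspa5 level, 214 CPM in KO and 167 CPM in WT, so that the classes spanned 4.30-fold and 4.90-fold. With every cell thinned to 2000 UMIs, 73.7% of KO and 71.1% of WT macrophage-like cells kept an Hspa5 UMI, against 29.4% and 26.2% of B-like cells.

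The same order held for much of the folding machinery. Calr and Canx, the lectin chaperones of glycoproteins, were the highest of the 12 classes in macrophage-like cells, at 841 and 293 CPM in KO and 760 and 293 CPM in WT. Of the disulfide isomerases, Pdia4 and Pdia6 were highest there too, with 158 and 390 CPM in KO and 142 and 368 CPM in WT. Pdia3 had 430 CPM in KO macrophage-like cells, beside 431 CPM in KO cDC1-like cells with overlapping intervals, and 419 CPM in WT macrophage-like cells. Sel1l, a subunit of the degradation ligase, spanned the least of the ER group, from 51.3 CPM in macrophage-like to 22.5 CPM in naive T-like cells of the KO library and from 54.8 to 21.2 CPM in the WT library.

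Another set was highest, among the 12 classes, in pDC-like cells, which secrete interferon. Hsp90b1, the ER Hsp90 (GRP94), had 1022 CPM in KO and 906 CPM in WT pDC-like cells, above 830 and 764 CPM in macrophage-like cells. Manf, a secreted ER stress factor, had 436 CPM in KO and 408 CPM in WT pDC-like cells, Herpud1, an ER membrane degradation factor, 220 and 201 CPM, and Dnajc3, a co-chaperone of BiP, 218 and 216 CPM, each above every other of the 12 classes without overlap. Hyou1, a large Hsp70-like ER chaperone, had 71.1 CPM in KO and 53.1 CPM in WT pDC-like cells, and only in KO was this clear of the next class. Xbp1, the transcription factor downstream of Ern1, reached 284 CPM in KO and 285 CPM in WT pDC-like cells and 255 and 221 CPM in monocyte-like cells. Its lowest levels, 19.5 CPM in KO B-like and 20.5 CPM in WT naive T-like cells, made a span of 14.6-fold and 13.9-fold.

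The remaining ER members had patterns of their own. Sdf2l1, a cofactor of ER chaperones, was highest in cDC1-like cells in KO (289 CPM) and shared the top with cDC2-like cells in WT (178 and 188 CPM), against 15.6 CPM in KO and 11.6 CPM in WT B-like cells. Creld2, a secreted ER stress protein, was at 68.0 CPM in KO and 42.0 CPM in WT cDC1-like cells, and at 66.2 and 49.7 CPM in macrophage-like cells. Edem1, which marks glycoproteins for degradation, was at 127 CPM in KO and 112 CPM in WT cDC2-like and at 113 and 117 CPM in monocyte-like cells. Dnajb9, another co-chaperone of BiP, ran against the rest, with 63.4 CPM in KO and 59.0 CPM in WT pDC-like and 60.4 and 59.9 CPM in B-like cells, while Treg-like cells had 16.0 and 16.4 CPM.

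**Figure D2:**
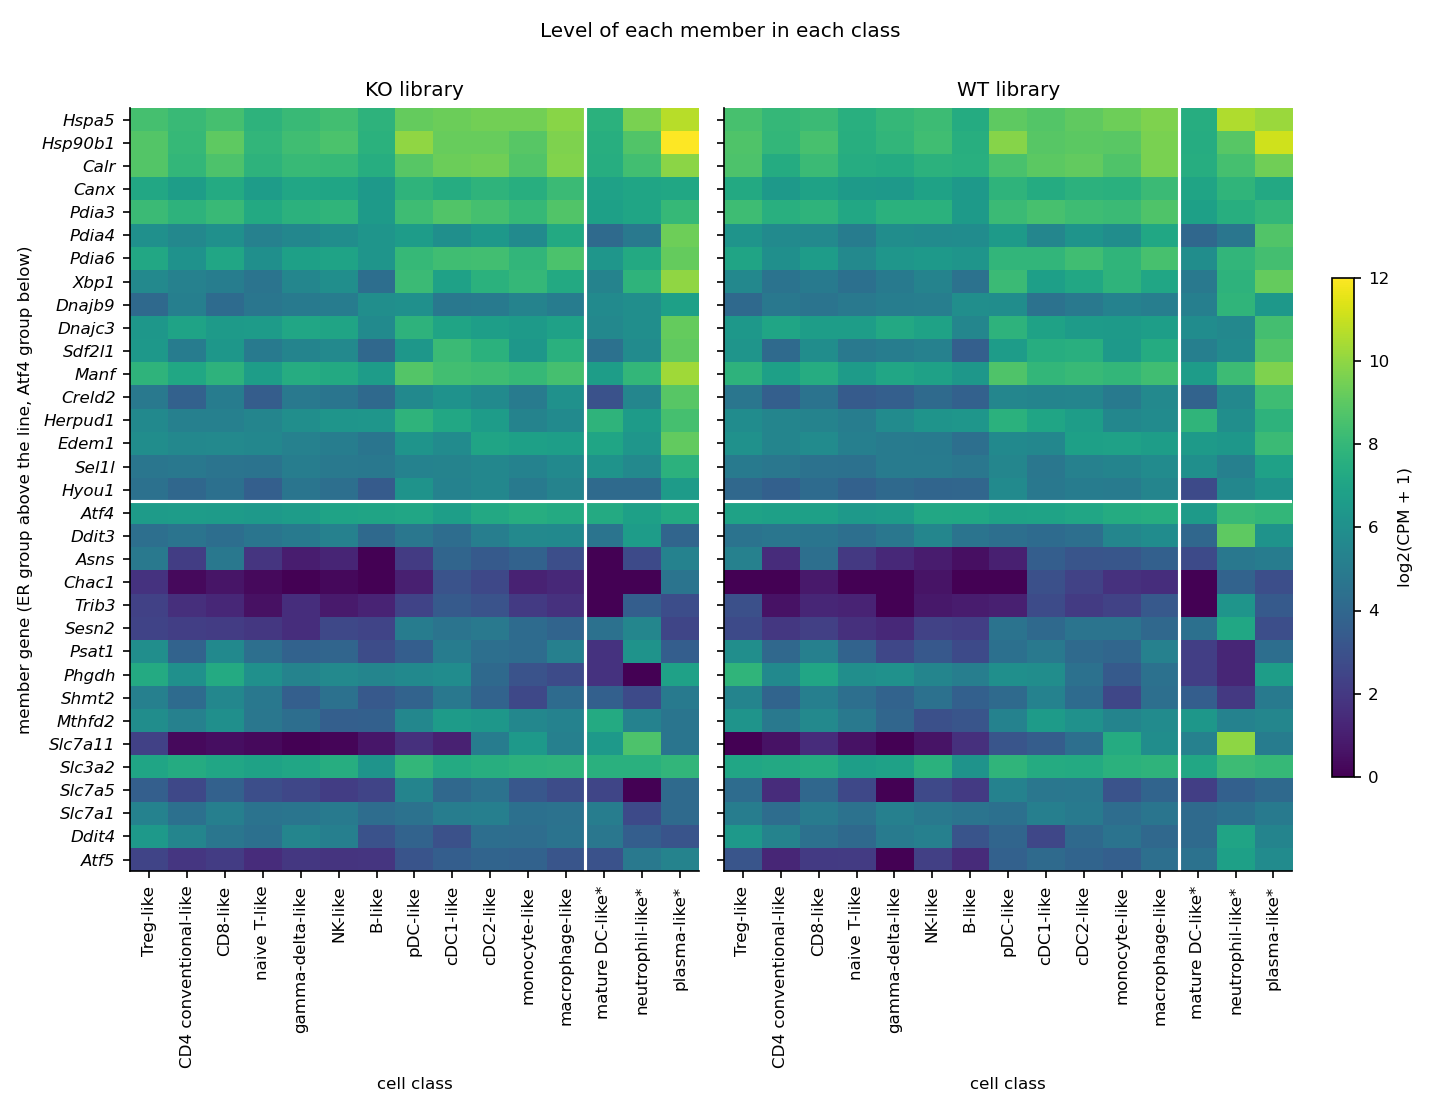
Level of each of the 33 members as log2(CPM + 1), with the KO library left and the WT library right. Rows are genes, with the ER group above the white line, and columns are classes, with the 3 classes under 100 cells in a library (starred) at the right. ER rows are brightest in plasma-like, macrophage-like and pDC-like columns, and the Slc7a11 row is bright in monocyte-like and neutrophil-like columns and near 0 in gamma-delta-like ones.

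The Atf4 group was less uniform. Atf4 mRNA itself spanned little, from 175 CPM in monocyte-like to 88.5 CPM in naive T-like cells of the KO library, and from 178 CPM in macrophage-like to 86.5 CPM in naive T-like cells of the WT library. Since Atf4 is set mainly by translation, its mRNA level does not give its activity. With cycling cells included, genes of amino acid synthesis were high in Treg-like and CD8-like cells. Of these cells 23.7% and 25.7% were cycling in KO and 29.4% and 15.2% in WT. Asns, asparagine synthetase, had 28.0 CPM in KO and 37.7 CPM in WT Treg-like cells, 27.3 and 19.8 CPM in CD8-like cells, and 0 UMIs in KO and 5 UMIs in WT B-like cells, where the KO count allows up to 2.40 CPM and the WT level was 0.405 CPM. Phgdh, the first enzyme of serine synthesis, had 159 CPM in KO and 228 CPM in WT Treg-like and 163 and 134 CPM in CD8-like cells, against 7.53 and 9.62 CPM in monocyte-like cells. Without cycling cells Phgdh had 70.1 CPM in KO and 77.3 CPM in WT Treg-like cells, and 64.8 and 60.2 CPM in CD8-like cells. Asns then had 8.34 CPM in KO and 11.7 CPM in WT Treg-like cells, and 5.62 and 3.54 CPM in CD8-like cells. Macrophage-like cells that were not cycling had 6.31 and 6.86 CPM of Asns.

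Psat1, the next enzyme of that path, was at 59.2 CPM in KO and 59.0 CPM in WT Treg-like cells. Without cycling cells it had 21.7 and 19.0 CPM there, and 23.2 and 16.1 CPM in macrophage-like cells. Shmt2, which passes the carbon of serine to mitochondrial folate, was at 46.7 CPM in KO and 35.3 CPM in WT CD8-like cells and at 36.0 and 42.0 CPM in Treg-like cells. Without cycling cells Shmt2 had 18.1 and 17.1 CPM in CD8-like, 18.3 and 11.7 CPM in Treg-like and 20.1 and 14.5 CPM in naive T-like cells. Mthfd2, the following mitochondrial folate enzyme, differed from these, with 96.1 CPM in KO and 96.0 CPM in WT cDC1-like cells and its lowest level in NK-like cells, 11.3 and 6.67 CPM. Ddit4, an inhibitor of mTORC1, had 87.0 CPM in KO and 85.8 CPM in WT Treg-like cells, clear of the next class at 43.3 CPM in KO (gamma-delta-like) and 40.3 CPM in WT (CD4 conventional-like).

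Among transporters, Slc7a11, the cystine and glutamate exchanger, was the most restricted. It had 87.3 CPM in KO and 166 CPM in WT monocyte-like cells, 36.8 and 58.6 CPM in macrophage-like cells, and 0 UMIs in gamma-delta-like cells of either library, which allows up to 3.55 CPM in KO and 6.04 CPM in WT. At 2000 UMIs a cell, 12.1% of KO and 18.1% of WT monocyte-like cells had a Slc7a11 UMI (28.7% and 40.0% unthinned), against 0.0487% and 0.179% of CD8-like cells (0.388% and 0.446% unthinned), which serve here as the background. Median depths were 8387 and 9391 UMIs in monocyte-like and 7014 and 6462.5 UMIs in CD8-like cells. Its heavy chain Slc3a2 was broad, from 247 CPM in KO and 230 CPM in WT pDC-like cells to 72.7 and 70.9 CPM in B-like cells. Slc7a5, the leucine carrier that shares this heavy chain, had 41.6 CPM in KO and 38.6 CPM in WT pDC-like cells. Slc7a1, the arginine carrier, lay between 18.8 and 38.4 CPM in KO and between 18.7 and 36.0 CPM in WT classes.

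Of the stress regulators, Ddit3, the transcription factor CHOP, was at 50.6 CPM in KO and 55.8 CPM in WT macrophage-like cells. On the genome 2 features carry its symbol on the same strand, and all 3372 KO and 3733 WT UMIs fell on the longer, so its count is given as uncertain. Trib3, a pseudokinase that restrains Atf4 signalling, was at most 9.61 CPM in KO (cDC1-like) and 9.19 CPM in WT (macrophage-like) among the 12 classes. Sesn2, a leucine sensor, was at 31.7 CPM in KO and 22.5 CPM in WT pDC-like cells. Atf5, an Atf4-induced transcription factor, was at 13.4 CPM in KO and 13.8 CPM in WT cDC2-like cells. Chac1, which degrades glutathione, was at 7.30 CPM in KO and 6.64 CPM in WT cDC1-like cells and had 0 UMIs in gamma-delta-like and B-like cells of either library, which allows up to 2.40 CPM in KO and 0.299 CPM in WT B-like cells.

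For KO against WT, a gene counted as higher or lower in a class when the ratio was at least 1.5-fold, 0.58 on the log2 scale, and its exact 95% interval excluded 1, provided that it had 20 UMIs or more over both libraries. Meeting it says nothing of the spread between animals. In the ER group all 204 pairs of gene and class were measured, of which 8 were higher and 0 lower in KO, from 6 genes. In the Atf4 group 163 of 192 pairs were measured, of which 7 were higher and 11 lower, from 9 genes. Over all genes 3.44% of the measured pairs were higher and 2.86% lower, so the counts of higher pairs lay near the share of all genes in both groups. The ER calls were in CD4 conventional-like, gamma-delta-like and cDC1-like cells, and most of the Atf4 group's lower values were in macrophage-like cells.

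**Figure D3:**
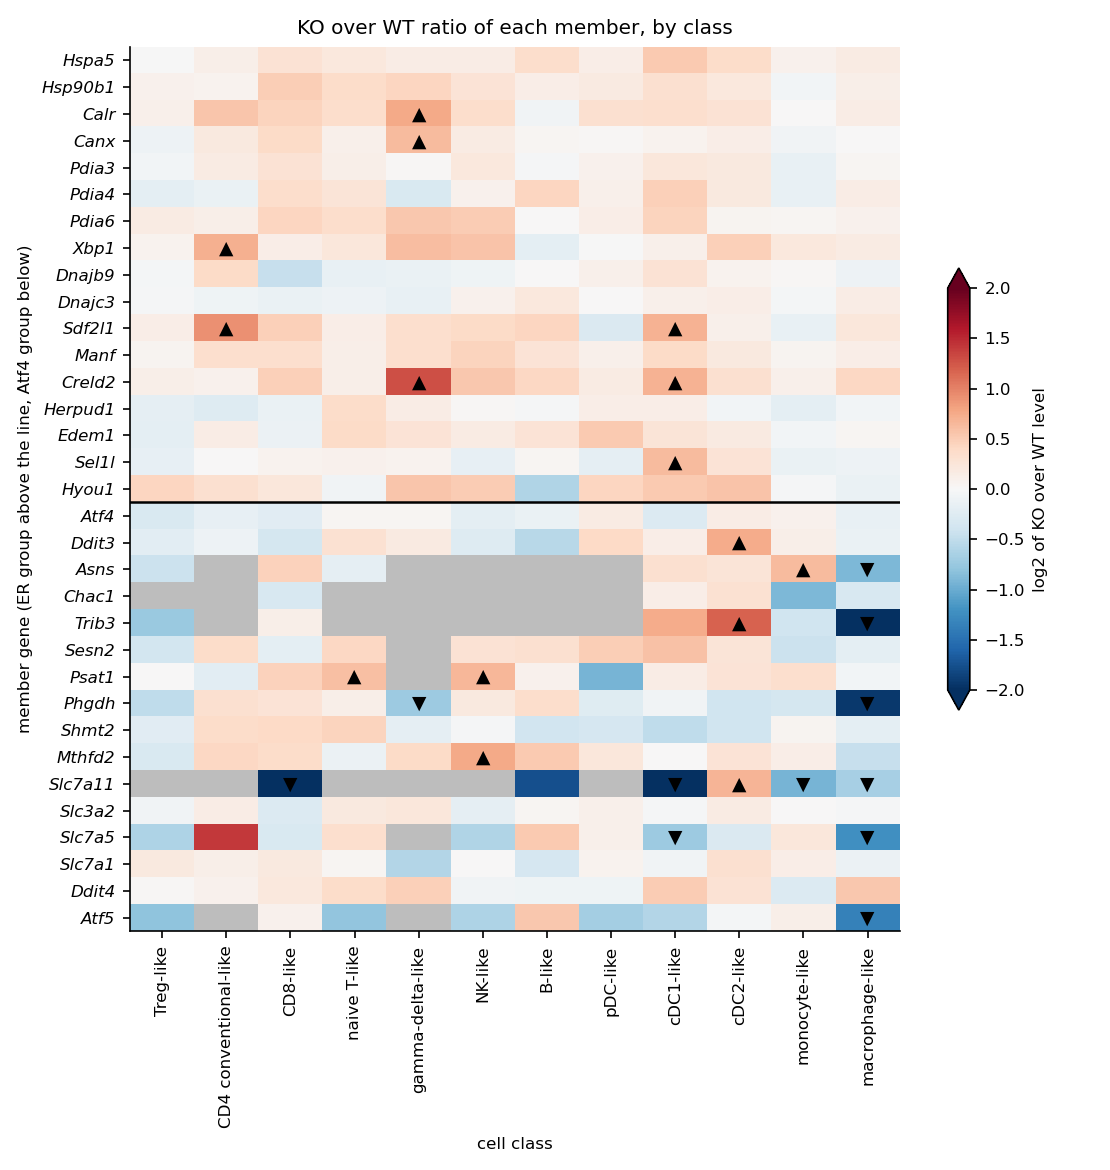
Log2 ratio of the KO over the WT level for each member (rows, ER group above the line) in each of the 12 classes (columns). Red is higher and blue lower in KO, triangles mark ratios that met the size rule, and grey marks pairs under 20 UMIs. ER rows hold 8 upward and 0 downward triangles, and the macrophage-like column holds 6 downward ones, all in the Atf4 group.

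Macrophage-like cells held 6 of the 26 called pairs, more than any other of the 12 classes, all of them lower in KO. Of 16 Atf4 group members 6 were lower and 0 higher, where 5.02% of all genes measured in the class were lower and 2.04% higher. Trib3 had 2.29 CPM (16 UMIs in 16 cells) in KO and 9.19 CPM (61 UMIs in 31 cells) in WT, a log2 ratio of -2.003 [-2.90, -1.19]. Phgdh had 5.59 CPM in KO and 21.2 CPM in WT (-1.93 [-2.48, -1.41]), from 24 and 48 cells. Most of the 416 KO and 299 WT cells thus had no UMI of either gene. The transcription factor Atf5 had 7.88 CPM in KO and 20.2 CPM in WT (-1.36 [-1.84, -0.89]). The leucine carrier Slc7a5 had 5.88 CPM in KO and 13.7 CPM in WT (-1.22 [-1.79, -0.68]). Asns had 6.31 CPM in KO and 11.8 CPM in WT (-0.90 [-1.47, -0.35]), and Slc7a11 36.8 CPM in KO and 58.6 CPM in WT (-0.67 [-0.90, -0.44]). These 6 genes serve different branches, amino acid synthesis, uptake and regulation.

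The Atf4 group as a whole had a median log2 ratio of -0.26 in these cells, with 15 of 16 members below 0, beside -0.04 over all genes. The exception was Ddit4, with 22.6 CPM in KO and 15.5 CPM in WT (0.54 [0.18, 0.92]), which missed the size rule. Atf4 mRNA had 161 CPM in KO and 178 CPM in WT, Ddit3 50.6 and 55.8 CPM, Mthfd2 39.1 and 54.1 CPM, Shmt2 17.2 and 19.6 CPM and Sesn2 13.6 and 15.7 CPM. The ER group moved otherwise in the same cells, with a median of 0.12, 13 of 17 members above 0 and 0 called. Summed over the group, the ER level was 5023 CPM in KO and 4630 CPM in WT, and the Atf4 group level 644 and 757 CPM.

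Several measures moved with the macrophage-like differences. The 416 KO cells had a median of 13147 UMIs and the 299 WT cells 17574, and 19.7% and 25.8% of them were cycling by marker genes. Of the 5 erythroid markers 4 were detected in KO, with 5.45 CPM in sum (Alas2 at 0), and 5 in WT, with 933 CPM, while neutrophil markers summed to 46.4 and 116 CPM, T cell markers to 50.9 and 49.0 CPM and melanoma markers to 12.04 and 16.4 CPM (Sox10 at 0 in both). Neutrophil-like cells had higher levels of Slc7a11 than macrophage-like cells in either library, and of Trib3 and Atf5 in WT. In KO neutrophil-like cells Trib3 and Atf5 had too few UMIs for an order to be stated. The part of neutrophil, erythroid or tumour RNA and of depth in the result was not tested. In the 217 KO and 140 WT macrophage-like cells with no UMI of a T cell, melanoma or erythroid marker, the ratios were -1.69 for Trib3, -1.305 for Phgdh and -1.09 for Slc7a11, while Slc7a5 (-0.52), Atf5 (-0.57) and Asns (-0.46) no longer met the rule. Without cycling cells Asns stood at -0.12, and 25.5% of the WT Phgdh UMIs came from 1 cell, without which, with the top KO cell also left out, the ratio was -1.74.

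Monocyte-like cells differed mainly in Slc7a11. It had 719 UMIs in 272 of 947 KO cells and 882 UMIs in 217 of 542 WT cells, levels of 87.3 [81.1, 94.0] and 166 [156, 178] CPM, with a ratio of -0.93 [-1.07, -0.79]. Asns was higher, with 12.5 CPM in KO and 8.11 CPM in WT (0.63 [0.10, 1.17]), but its ratio was 0.04 when classes were taken from clusters of cells named by the same markers. That is 1 higher and 1 lower of 16 Atf4 group members, beside 3.79% higher and 4.07% lower over all genes, and 0 of 17 ER members were called. Sesn2 had 17.4 CPM in KO and 23.4 CPM in WT (-0.43 [-0.79, -0.07]). The ER group had a median of -0.05, that of all genes. Erythroid markers summed to 497 CPM in KO and 1022 CPM in WT monocyte-like cells and neutrophil markers to 110 and 122 CPM. Slc7a11 reached 402 CPM in KO and 990 CPM in WT neutrophil-like cells, and the part of neutrophil RNA in the monocyte-like values was not tested.

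**Figure D4:**
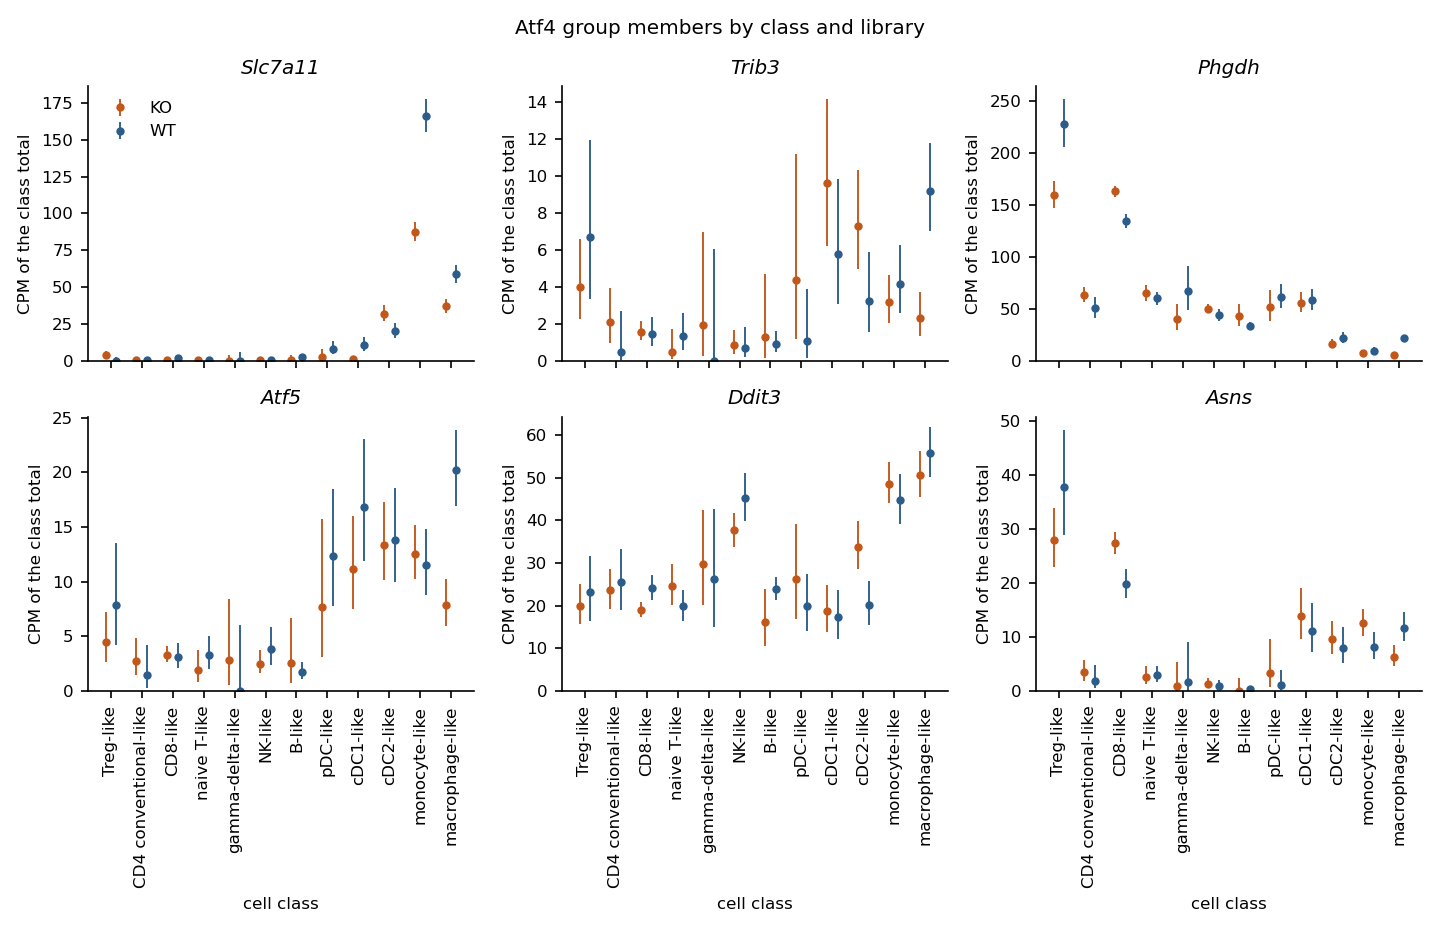
Level in CPM of 6 Atf4 group genes in the 12 classes, with KO (orange) left of WT (blue) and bars for exact Poisson 95% intervals. Slc7a11 is lower in KO monocyte-like cells (87.3 against 166 CPM), and Trib3, Phgdh, Atf5 and Asns are lower in KO macrophage-like cells. With cycling cells included, Phgdh and Asns are highest in Treg-like and CD8-like cells.

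In cDC2-like cells the Atf4 group went the other way. Of 16 members 3 were higher and 0 lower, beside 4.51% and 2.78% of all genes, with a median of 0.27 against 0.03. Ddit3 had 33.8 CPM in KO and 20.2 CPM in WT (0.74 [0.31, 1.19]), a ratio of 0.56 with classes from clusters, where Trib3 missed the rule as well. Trib3 had 31 UMIs (7.28 CPM) in KO and 10 UMIs (3.20 CPM) in WT (1.18 [0.12, 2.38]), and without the cell with the most UMIs in each library its ratio of 0.97 no longer met the rule. Slc7a11 had 31.7 CPM in KO and 19.9 CPM in WT (0.67 [0.23, 1.13]), with 20% of the KO and 32.3% of the WT UMIs in 1 cell, and without these cells the ratio was 0.91. Melanoma markers summed to 39.7 CPM in KO and 1.92 CPM in WT cDC2-like cells, where 3.93% and 6.82% of cells were cycling, and without cycling cells the ratios of Slc7a11 (0.54) and Trib3 (0.81) no longer met the rule.

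cDC1-like cells, the dendritic class that cross-presents antigen, held the most uniform ER pattern. All 17 ER members had ratios above 0, between 0.07 and 0.69, with a median of 0.33 beside 0.06 over all genes, and 3 were higher beside 4.4% of all genes. Of 13 heat shock and dissociation genes 2 were higher in the same cells, Hspa1a with 71.5 CPM in KO and 35.0 CPM in WT (1.03) and Egr1 with 185 and 122 CPM (0.61), and their part in the ER values was not tested. Sdf2l1 had 289 [268, 310] CPM in KO and 178 [161, 197] CPM in WT (0.69 [0.52, 0.87]). Creld2 had 68.0 CPM in KO and 42.0 CPM in WT (0.69 [0.33, 1.07]), and Sel1l 40.4 and 26.1 CPM (0.63 [0.15, 1.11]). Hspa5, with 626 CPM in KO and 435 CPM in WT (0.53 [0.41, 0.64]), and Hyou1, with 38.8 and 27.0 CPM (0.52), stayed under the size rule.

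In the Atf4 group 8 of 16 members were above 0, 0 were higher and 2 lower beside 2.44% of all genes. Slc7a11 had 3 UMIs in 3 KO cells and 24 UMIs in 11 WT cells (-3.20 [-5.58, -1.48]). Slc7a5 had 15.8 CPM in KO and 26.1 CPM in WT (-0.73 [-1.34, -0.13]), a ratio that was 0.16 with classes taken from clusters. Trib3 and Sesn2 had ratios of 0.74 and 0.58 with intervals that included 0. Cycling cells made up 33.1% of KO and 23.7% of WT cDC1-like cells, and macrophage markers summed to 29.98 and 138 CPM. Without cycling cells the ER median was 0.40, and with classes from clusters 0.30, while Sdf2l1 (0.45) and Sel1l (0.12) then missed the rule. With clusters named by cells of 1 lineage all 3 ER calls were lost, Creld2 with a ratio of 0.47. Sel1l also missed the rule without cycling cells (0.50) and under both other scalings (0.57 and 0.56).

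In CD8-like cells, which held the most UMIs of all classes, 0 of 17 ER members were called in either direction, beside 3.94% higher and 3.9% lower over all genes. The ER level summed over the group was nonetheless 2495 CPM in KO and 1980 CPM in WT, a log2 ratio of 0.33 [0.31, 0.36], and 13 of 17 members were above 0 with a median of 0.29 beside 0.05. Hsp90b1 had 511 CPM in KO and 362 CPM in WT (0.50 [0.44, 0.55]), Sdf2l1 81.5 and 58.6 CPM (0.48), Creld2 31.8 and 22.9 CPM (0.47) and Calr 395 and 289 CPM (0.45). Dnajb9 went the other way, with 17.1 CPM in KO and 23.4 CPM in WT (-0.45 [-0.68, -0.22]). Cycling cells were 25.7% of KO and 15.2% of WT CD8-like cells, and without them the ER median was 0.24. Of the Atf4 group 0 were higher and 1 was lower, Slc7a11 with 9 UMIs in KO and 20 in WT, and 80% of the WT UMIs lay in 1 cell. Without the top cell of each library 7 KO and 4 WT UMIs were left, too few to be measured. Asns had 27.3 CPM in KO and 19.8 CPM in WT (0.47 [0.24, 0.70]), and Psat1 50.9 and 36.9 CPM (0.46 [0.30, 0.63]).

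Of the 8 ER calls 5 were in CD4 conventional-like and gamma-delta-like cells. In CD4 conventional-like cells 2 of 17 were higher and 0 lower, beside 3.58% and 2.09% of all genes. Sdf2l1 had 31.5 CPM in KO and 16.8 CPM in WT (0.91 [0.36, 1.49]) and Xbp1 37.1 and 22.6 CPM (0.72 [0.24, 1.22]). With cells thinned neither interval excluded 0, and with cells weighted equally the Xbp1 ratio was 0.52. Calr, with 245 CPM in KO and 167 CPM in WT (0.55 [0.38, 0.73]), fell just short, and 0 of 11 measured Atf4 group members were called. In gamma-delta-like cells 3 of 17 were higher and 0 lower, beside 3.12% and 2.26%. Calr had 274 CPM in KO and 162 CPM in WT (0.76 [0.42, 1.10]), Canx 137 and 88.5 CPM (0.63 [0.17, 1.11]) and Creld2 29 UMIs in KO and 7 in WT (1.28 [0.06, 2.72]). Of 8 measured Atf4 group members 1 was lower, Phgdh, with 40.4 CPM in KO and 67.2 CPM in WT (-0.73 [-1.39, -0.08]). Only 23.9% of the gamma-delta-like cells lay in the cluster of that name, and with classes from clusters Calr (0.13), Canx (0.19) and Phgdh no longer met the rule. Without the cell with the most UMIs in each library the interval of Creld2 (1.23) included 0.

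In NK-like cells the Atf4 group had 2 members higher and 0 lower, beside 3.02% and 1.39% of all genes. Psat1 had 14.2 CPM in KO and 8.96 CPM in WT (0.66 [0.19, 1.15]) and Mthfd2 11.3 and 6.67 CPM (0.76 [0.22, 1.34]). With classes from clusters neither met the rule (0.19 for Psat1 and 0.48 for Mthfd2), nor with the highest Scrublet doublet scores removed (0.53 and 0.58). In the ER group 15 of 17 members were above 0 (median 0.20 beside 0.05) and 0 were called. Xbp1, with 59.9 CPM in KO and 40.2 CPM in WT (0.57 [0.35, 0.80]), and Pdia6, with 123 and 86.4 CPM (0.51 [0.35, 0.66]), were the nearest. In naive T-like cells 1 Atf4 group member was higher and 0 lower, beside 3.68% and 1.81%: Psat1 had 20.1 CPM in KO and 13.3 CPM in WT (0.60 [0.14, 1.05]), which 9 of 13 alternative settings took under the rule. In B-like cells 0 members of either group were called, beside 3.27% higher and 2.53% lower, and in pDC-like cells likewise 0, beside 2.96% and 2.46%. The ER sums there were 1330 CPM in KO and 1224 CPM in WT B-like cells, and 4494 and 4110 CPM in pDC-like cells.

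In Treg-like cells, the class named by the labels, 0 members of either group were called, beside 2.93% higher and 2.85% lower over all genes. The ER group had a median ratio of -0.01 with 8 of 17 members above 0, and sums of 2518 CPM in KO and 2475 CPM in WT. In the Atf4 group 3 of 14 measured members were above 0, the median was -0.31 beside 0.01 over all genes, and the sums were 743 CPM in KO and 875 CPM in WT (-0.24 [-0.33, -0.14]). Phgdh had 159 [147, 173] CPM in KO and 228 [205, 252] CPM in WT (-0.52 [-0.70, -0.33]), Asns 28.0 and 37.7 CPM (-0.43 [-0.90, 0.05]) and Atf4 95.2 and 118 CPM (-0.31 [-0.57, -0.05]). Cycling cells were 23.7% of KO and 29.4% of WT Treg-like cells. Without them Phgdh had 70.1 CPM in KO and 77.3 CPM in WT, Asns 8.34 and 11.7 CPM and Atf4 84.5 and 101 CPM. The part of cycling cells in the Atf4 group values was not tested. Psat1 had a ratio of 0.00 and Ddit4 of 0.02. Slc7a11 had 15 UMIs in KO, of which 53.3% lay in 1 cell, and 0 in WT. The Foxp3 shares above differ between these cells, and the Atf4 group median was -0.41 in Treg-like cells with a Foxp3 UMI, 0.00 in those without, and 0.04 with classes from clusters.

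The members that were called in no class are given by their range of log2 ratios over the classes where they were measured. In the ER group all 12 classes measured each gene. Hspa5 ran between -0.01 and 0.53 with 11 classes above 0, and Hsp90b1 between -0.05 and 0.50 with 11 above 0. Pdia6 (0.01 to 0.54) and Manf (0.05 to 0.44) were above 0 in all 12 classes. So was Creld2, which was called in 2 of them. Pdia3 ran between -0.15 and 0.29, and Pdia4 between -0.31 and 0.48. The co-chaperones Dnajb9 (-0.45 to 0.38) and Dnajc3 (-0.14 to 0.21) were above 0 in 6 classes each. The degradation factors Herpud1 (-0.26 to 0.36) and Edem1 (-0.20 to 0.52) were above 0 in 5 and 9 classes, and Hyou1 (-0.60 to 0.57) in 8. In the Atf4 group, Atf4 mRNA ran between -0.31 and 0.16 with 5 of 12 classes above 0. Shmt2 ran between -0.51 and 0.44, Slc3a2 between -0.27 and 0.22, Slc7a1 between -0.58 and 0.31 and Ddit4 between -0.27 and 0.54. Sesn2, measured in 11 classes, ran between -0.43 and 0.58, and Chac1, measured in 5, between -0.90 and 0.31.

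The members were also set side by side between classes of the same library. The first comparison was Treg-like over CD4 conventional-like cells. In KO 8 of 14 measured Atf4 group members were higher (median 0.93) and 6 of 17 ER members (0.46), beside 14.9% of all genes, and in WT 8 of 11 (1.38) and 10 of 17 (0.67), beside 18.5%. Asns had 28.0 CPM in Treg-like and 3.47 CPM in CD4 conventional-like cells of the KO library and 37.7 and 1.92 CPM in WT. Psat1 had 59.2 and 13.2 CPM in KO and 59.0 and 15.4 CPM in WT, and Sdf2l1 83.7 and 31.5 CPM in KO and 76.7 and 16.8 CPM in WT. Slc7a5, the leucine carrier, had ratios of 1.17 in KO and 3.20 in WT. Dnajb9 (-1.16 in KO, -0.74 in WT) and Dnajc3 (-0.60 and -0.66) were lower in Treg-like cells, 2 of 17 beside 11.4% of all genes in each library. Atf4 (-0.05 and 0.10) and Ddit3 (-0.24 and -0.14) themselves were not called. Cycling cells were 23.7% of KO and 29.4% of WT Treg-like cells, against 3.71% and 2.21% of CD4 conventional-like cells. Without them 4 of 12 Atf4 group and 2 of 17 ER members were higher in KO, beside 8.38% of all genes, and 3 of 9 and 3 of 17 in WT, beside 10.8%. Asns then had 8.34 CPM in Treg-like and 2.06 CPM in CD4 conventional-like cells of the KO library (2.02), and in WT it was under 20 UMIs.

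For CD8-like over naive T-like cells both groups had members that were higher. Of the ER group 11 of 17 were higher in KO (median 0.74) and 10 of 17 in WT (0.62), and of the Atf4 group 7 of 14 (0.80) and 8 of 15 (0.78), beside 19.9% and 20.3% of all genes. No member was lower, beside 10.2% in KO and 6.77% in WT. Asns had 27.3 CPM in CD8-like and 2.60 CPM in naive T-like cells of the KO library (3.39) and 19.8 and 2.95 CPM in WT (2.74). Creld2 had 31.8 and 10.7 CPM in KO (1.58) and 22.9 and 9.85 CPM in WT (1.22), and Hsp90b1 ratios were 1.11 and 0.99. Cycling cells were 25.7% of KO and 15.2% of WT CD8-like cells, against 3.37% and 4.11% of naive T-like cells. Without them 4 of 17 ER members were higher in each library, and 2 of 13 Atf4 group members in KO and 7 of 14 in WT, beside 12% and 14.5% of all genes. Asns then had 5.62 CPM in CD8-like and 0.544 CPM in naive T-like cells of the KO library (3.37 [1.45, 6.45]) and 3.54 and 0.377 CPM in WT (3.23 [1.22, 6.36]).

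Plasma-like over B-like cells was the largest contrast, from 31 KO and 18 WT plasma-like cells. The median ratio over all genes was -0.83 in KO and -0.07 in WT. Cycling cells were 12.9% of KO and 27.8% of WT plasma-like cells, against 0% and 0.0286% of B-like cells. This contrast was not run without cycling cells, and their part in it was not tested. All 17 ER members were higher in KO (median 3.105) and 16 in WT (2.83), beside 11.1% and 11.9% of all genes, and 0 were lower beside 43.6% and 15.6%. Xbp1 had 1013 CPM in plasma-like and 19.5 CPM in B-like cells of the KO library (5.70) and 574 and 22.3 CPM in WT (4.69). Hsp90b1 had 4254 and 205 CPM in KO and 2238 and 186 CPM in WT, with 39.2% of the WT plasma-like UMIs in 1 cell. Sdf2l1 had 543 and 15.6 CPM in KO and 432 and 11.6 CPM in WT. Dnajb9, the exception in WT, had 113 and 60.4 CPM in KO and 83.8 and 59.9 CPM in WT. In the Atf4 group 6 of 9 measured members were higher in KO and 11 of 13 in WT, among them Atf5, with 40.2 and 2.60 CPM in KO and 54.8 and 1.78 CPM in WT.

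Within CD8-like cells the members were compared between cycling cells, which had UMIs of at least 4 cell cycle markers, and the other cells of the same library, 530 and 1533 cells in KO and 171 and 951 in WT. The marker count was not adjusted for depth, so deeper cells passed it more readily. The depth of the 2 states is not given here, and the part of depth in these ratios was not tested. In KO 11 of 17 ER members were higher in cycling cells (median 0.70) and 7 of 14 Atf4 group members (0.85), beside 22.5% of all genes, and in WT 11 of 17 (0.79) and 7 of 14 (1.05), beside 24.2%. Among the Atf4 group the ratios of Asns and Psat1 were the highest in both libraries. Asns had 43.0 CPM in cycling and 5.62 CPM in other KO cells (2.94) and 45.7 and 3.54 CPM in WT (3.69). Psat1 had 78.2 and 12.9 CPM in KO (2.60) and 76.2 and 12.3 CPM in WT (2.63), and Phgdh 234 and 64.8 CPM in KO (1.85) and 253 and 60.2 CPM in WT (2.07). Ratios were 2.18 in KO and 2.10 in WT for Slc7a5, 1.89 and 1.91 for Shmt2, 1.62 and 1.95 for Mthfd2 and 0.68 and 1.17 for Slc7a1.

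Among ER members Sdf2l1 had 114 CPM in cycling and 37.0 CPM in other KO cells (1.62) and 105 and 29.2 CPM in WT (1.85). Dnajb9 (-1.49 in KO and -1.45 in WT) and Ddit3 (-1.28 and -1.06) were lower in cycling cells, and Atf4 mRNA had ratios of 0.04 and 0.28. Hsp90b1 had 669 CPM in KO and 589 CPM in WT cycling cells, and 293 and 220.5 CPM in the other cells, so its KO level was above its WT level in each state. Asns did not show that, with 43.0 CPM in KO and 45.7 CPM in WT cycling cells.

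**Figure D5:**
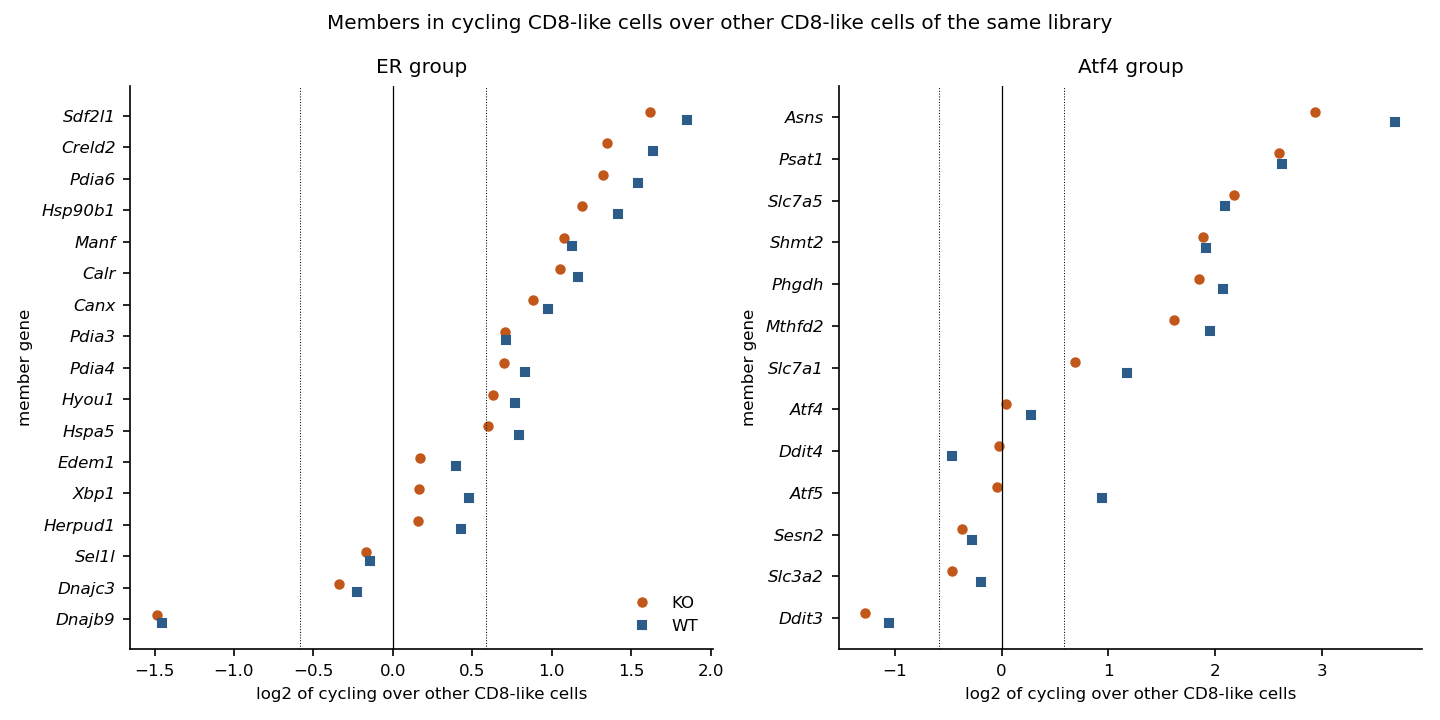
Log2 ratio of the level in cycling over other CD8-like cells, for 17 ER (left) and 13 Atf4 group members (right) measured in both libraries, with KO as circles and WT as squares. Dotted lines mark 1.5-fold. Most members lie right of 0 in both libraries, led by Asns (2.94 in KO and 3.69 in WT), while Dnajb9 and Ddit3 lie left of the lower line.

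In macrophage-like cells 82 KO and 77 WT cells were cycling, and 334 and 222 were not. Psat1 had 60.2 CPM in cycling and 23.2 CPM in other KO cells and 67.8 and 16.1 CPM in WT, and Shmt2 33.1 and 8.11 CPM in KO and 32.0 and 10.3 CPM in WT. Slc7a11 was lower in cycling cells, with 13.8 and 50.04 CPM in KO (-1.86) and 20.4 and 87.3 CPM in WT (-2.10), as were Ddit4 (-1.68 and -1.39) and Sesn2 (-0.93 and -0.89). ER ratios lay between -0.46 and 0.34 in KO and between -0.56 and 0.41 in WT. The difference from CD8-like cells was not tested.

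Across the 12 classes the ER members had higher correlations with one another than the Atf4 group members had. Over log2(CPM + 1), the median Spearman correlation of 136 ER pairs was 0.76 in KO and 0.73 in WT, that of 120 Atf4 group pairs 0.32 and 0.29, and that of 272 pairs between the groups 0.47 and 0.43. These are descriptions over classes of 1 library, which share its depth and free RNA, with no p. The closest were Hsp90b1 with Manf (0.97 in KO and 0.97 in WT), Hspa5 with Canx (0.97 and 0.94) and Pdia6 with Creld2 (0.93 and 0.97). In the Atf4 group Asns went with Mthfd2 (0.87 and 0.85) and Psat1 (0.84 and 0.82), while Sesn2 was nearest to Xbp1 (0.82 and 0.92) and Atf5 to Canx (0.88 and 0.91), both of the ER group. Dnajb9 stood apart, with a median correlation of 0.05 with the other ER members in each library, and Ddit4 in the Atf4 group, with -0.26 and -0.19.

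Neutrophil-like cells, 35 in KO and 163 in WT, were too few to compare, and their values are given as levels. Slc7a11 had 402 [315, 506] CPM in KO and 990 [917, 1068] CPM in WT, above its level in each of the 12 compared classes. Ddit3 had 99.2 CPM in KO and 517 CPM in WT, and Atf4 110 and 283 CPM. Among the other Atf4 targets, Trib3 had 11.02 CPM in KO and 76.6 CPM in WT, Sesn2 44.1 and 141 CPM, Ddit4 11.02 and 127 CPM and Atf5 27.6 and 111 CPM. Hspa5 had 766 CPM in KO and 1530 CPM in WT. The KO values of these 8 genes rest on 2 to 139 UMIs, and no direction was read from them. At 2000 UMIs a cell, 59.4% of 32 KO and 63.6% of 151 WT cells had a Slc7a11 UMI.

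The upstream sensors met the size rule in shares near those of all pairs. Of 15 sensors, kinases and phosphatase subunits 7 of 169 measured pairs of gene and class were higher (4.14%) and 3 lower (1.78%), beside 3.44% and 2.86% of all pairs. In cDC2-like cells Ern1 had 13.9 CPM in KO and 8.33 CPM in WT (0.73), Ppp1r15b, a subunit of the phosphatase that reverses eIF2α phosphorylation, 57.0 and 35.6 CPM (0.68) and Eif2ak2, the kinase PKR, 65.7 and 42.6 CPM (0.63), 3 of 14 measured beside 4.51% of all genes. Eif2ak2 also had 97.2 CPM in KO and 63.2 CPM in WT monocyte-like cells (0.62). Ppp1r15a, the inducible subunit, had 80.8 CPM in KO and 141 CPM in WT gamma-delta-like cells (-0.80). In macrophage-like cells, where the Atf4 group was lower, 0 of these 15 were called, beside 2.04% higher and 5.02% lower over all genes.

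Neighbouring ER lists were counted by the same rule, beside 3.44% higher and 2.86% lower over all pairs. Of 19 translocon and glycosylation genes 0 of 228 measured pairs were called. Of 16 other degradation genes 1 of 176 pairs was higher (0.568%) and 1 lower (0.568%). The higher was Syvn1, the degradation ligase, with 19.2 CPM in KO and 11.5 CPM in WT cDC1-like cells (0.74). The lower was Nploc4 in naive T-like cells (-0.73). Of 18 other folding enzymes 5 of 185 pairs were higher (2.70%) and 6 lower (3.24%), near the shares of all pairs. The oxidase Ero1lb gave 4 of the lower ones, with 59.7 CPM in KO and 110 CPM in WT B-like cells (-0.88), 5.21 and 10.0 CPM in naive T-like (-0.94), 19.5 and 32.0 CPM in cDC2-like (-0.72) and 12.8 and 19.3 CPM in macrophage-like cells (-0.60).

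Of the amino acid lists, 18 of 19 tRNA synthetases were found, and of 214 pairs 8 were higher (3.74%) and 1 lower (0.467%). Wars had 44.8 CPM in KO and 20.6 CPM in WT B-like cells (1.12), Farsb 23.2 and 10.6 CPM in CD4 conventional-like cells (1.13), and Dars (0.70) and Tars (0.64) were higher in cDC1-like cells. The 1 lower was Yars in macrophage-like cells, with 12.3 CPM in KO and 21.5 CPM in WT (-0.81), and the list's median there was -0.26 beside -0.04. Of 11 further serine, folate and proline genes 2 of 97 pairs were higher (2.06%) and 4 lower (4.12%). Psph, the last enzyme of serine synthesis (-0.73), and Mthfd2l (-0.68) were lower in macrophage-like cells, 2 of 9 measured beside 5.02% of all genes. Shmt1, the cytosolic form of Shmt2, was higher in CD8-like cells, with 20.9 CPM in KO and 11.5 CPM in WT (0.85). Of 11 further transporters 3 of 81 pairs were higher (3.70%) and 2 lower (2.47%). Slc7a7 had 46.2 CPM in KO and 26.6 CPM in WT monocyte-like cells (0.80), and Slc43a2 was lower in CD8-like (-0.75) and Treg-like cells (-0.70).

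Among 15 other Atf4 targets 9 of 112 measured pairs were higher and 9 lower (8.04% each), beside 3.44% and 2.86% of all pairs. In macrophage-like cells 2 of 11 were lower, beside 5.02% of all genes, and 0 higher. In cDC1-like cells 3 of 11 were lower, beside 2.44%, and in cDC2-like cells 2 of 11 were higher, beside 4.51%. Bbc3, a cell death gene, had 10.7 CPM in KO and 20.2 CPM in WT macrophage-like cells (-0.91), and Gadd45a 12.8 and 19.3 CPM (-0.60). Vegfa had 1.92 CPM in KO and 7.52 CPM in WT cDC1-like cells (-1.97) and 21.1 and 10.3 CPM in cDC2-like cells (1.04). Cebpb, a C/EBP factor, had 507 CPM in KO and 331 CPM in WT cDC2-like cells (0.62). Of 13 cytosolic heat shock and dissociation genes 12 of 156 pairs were higher (7.69%) and 3 lower (1.92%). These genes can rise when tissue is dissociated. Calls in lymphocytes included Hsph1 with 41.2 CPM in KO and 19.2 CPM in WT CD4 conventional-like cells (1.10) and Hspa1b with 18.3 and 7.73 CPM in NK-like cells (1.25). In pDC-like cells Hspa1a was lower, with 10.9 CPM in KO and 53.1 CPM in WT (-2.28), as was Hspa1b (-1.26), while Jun (0.84) and Ier2 (0.76) were higher. In cDC1-like cells Hspa1a (1.03) and Egr1 (0.61) were higher. In macrophage-like, cDC2-like and monocyte-like cells 0 of the 13 were called. Over all genes 2.04%, 4.51% and 3.79% were higher there and 5.02%, 2.78% and 4.07% lower.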

How the data were processed

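Single-cell 3' RNA counts of CD45+ DAPI- cells were analysed in 1 KO and 1 WT library. The values are whole-number UMI counts per gene and cell barcode, deposited by the authors as 10x matrices. They were made with Cell Ranger and STAR on mm10, per the submitters' processing notes, and versions are not given in the sources used here. Libraries were made with 10x 3' v3 reagents, per the labels' protocols.

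Cells with at least 500 genes, 1000 UMIs and at most 10% mitochondrial UMIs were kept. A cell took a class when it had UMIs of enough distinct markers of that class. The T, B, NK and general myeloid gates also needed at least 5 UMIs of lineage markers in 10000. The dendritic and neutrophil gates, which also count as myeloid, and the plasma-like gate had no such minimum. Cells passing for more than 1 lineage were set aside, which was the treatment of doublets, and Scrublet scores were an alternative. Counts were summed by class and library. Levels are CPM of the class total with exact Poisson 95% intervals. KO over WT ratios have exact conditional binomial 95% intervals, and a library at 0 was set to a floor of 3 UMIs. A pair was measured from 20 UMIs over both libraries, and called at 1.5-fold with an interval excluding 1. Classes needed 100 cells in each library. All intervals cover counting error only. The 33 members are all named, and genes of 9 other lists were named where called. The members, lists and classes were chosen with earlier results of these data known. To compare shares of cells, each cell was thinned to 2000 UMIs. A cell was cycling with UMIs of 4 or more cell cycle markers at its full depth. Percentages of cycling cells are shares of cells, not of the UMIs summed in a class.

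Promoters came from RefSeq (GRCm38.p6), which holds 30 of the 33 members, with no entry for Manf, Slc7a5 and Hyou1. The alternatives were other cell filters, doublet calls, classes, scalings, minimums and folds, thinned cells, cells weighted equally, and classes without cycling cells or without the cell with the most UMIs. The 5 alternatives added after seeing the data were Treg-like cells with and without a Foxp3 UMI, clusters named by cells of 1 lineage, macrophage-like cells without stray marker UMIs, and class against class without cycling cells. The calling was tested on simulated data. Python 3.11.15, numpy 2.4.6, scipy 1.17.1, pandas 2.3.3, scanpy 1.11.5 and matplotlib 3.10.9 were used. Clusters came from the Leiden method of igraph on neighbours found with scikit-learn, whose versions were not recorded.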

Additional observations from a re-analysis of the deposited data

Results flagged for a closer look

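Some genes had KO over WT ratios of opposite sign in 2 classes, each with an interval that excluded 0. Trib3 was higher in KO cDC2-like cells (1.18) and lower in KO macrophage-like cells (-2.003), a difference of 3.19 on the log2 scale. Slc7a11 was higher in KO cDC2-like cells (0.67) and lower in KO cDC1-like cells (-3.20), a difference of 3.88. Asns was higher in KO monocyte-like cells (0.63) and lower in KO macrophage-like cells (-0.90), a difference of 1.52. Without cycling cells the calls of Trib3 and Slc7a11 in cDC2-like cells and of Asns in macrophage-like cells were lost. With classes from clusters the call of Asns in monocyte-like cells was lost. None of these 3 differences between classes was tested, since each genotype has 1 library.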

How the results depend on the processing

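Of the 26 calls, 4 were kept under every alternative run on them (Slc7a11 in CD8-like and cDC1-like cells, Trib3 and Phgdh in macrophage-like cells), though Slc7a11 had enough UMIs in only 7 alternatives in CD8-like and 9 in cDC1-like cells. In CD8-like cells it could not be measured without its top cell, which held 80% of the WT UMIs. The calls of Slc7a11 in monocyte-like and macrophage-like cells were lost only at 2-fold. Calls of the ER group, 8 higher and 0 lower in KO, became 1 higher at 2-fold, and 1 was lower with thinned cells and 1 with cells weighted equally. The 7 higher calls of the Atf4 group became 3 with the highest Scrublet scores removed, 1 with classes from clusters, 14 with cells weighted equally, 1 at 2-fold and 4 with clusters named by cells of 1 lineage. Its 11 lower calls became 3 with classes from clusters, 3 with thinned cells, 24 with cells weighted equally and 6 at 2-fold. The shares of all genes called under these settings are not given here. The changed counts of either group are therefore not read as a result about the members. No cluster took the macrophage name, so the 6 calls in macrophage-like cells had no value there. The highest class was the same for 18 of 33 members in KO and 13 in WT with classes from clusters, and for 21 in KO with clusters named by cells of 1 lineage. Slc7a5 in cDC1-like cells turned to 0.1555 with classes from clusters. Without cycling cells (added after seeing the data), members higher in Treg-like than in CD4 conventional-like cells went to 2 ER and 4 Atf4 group genes in KO (6 and 8 with them) and 3 and 3 in WT (10 and 8 with them), and those higher in CD8-like than in naive T-like cells to 4 and 2 in KO (11 and 7 with them) and, for the ER group, 4 in WT (10 with them). The cause of these changes was not tested, except that fewer UMIs or a stricter fold leave fewer calls by construction. No paired analysis was possible because each genotype has 1 library.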
